A study of Mus musculus with 8 samples.

Results

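The nuclear genes for oxidative phosphorylation were followed through the epidermis of REDD1 knockout and wild-type mice after a topical irritant, with and without a glucocorticoid. They were chosen by symbol: protein-coding nuclear genes whose name starts with Ndufa, Ndufb, Ndufc, Ndufs or Ndufv (complex I), Sdha, Sdhb, Sdhc or Sdhd (complex II), Uqcr (complex III), Cox4, Cox5, Cox6, Cox7 or Cox8 (complex IV), or Atp5 (complex V), with 10 or more counts summed over the 8 libraries. Of 54232 gene identifiers listed, 95 met this rule: 46 for complex I, 8 for complex II, 8 for complex III, 16 for complex IV and 17 for complex V. They lie on 19 chromosomes. The prefixes also take in 12 assembly factors (8 Ndufaf and 4 Sdhaf genes), which build the complexes but are not part of them, and Atp5s, which is not counted as a subunit either. The other 82 are subunits. A filter on low counts left 94 members for testing and removed Cox4i2, the member closest to the threshold of the rule with 36 counts in all. Outside the rule were 13 symbols that are not protein coding, among them Ndufb1-ps with 1570 counts, and Cox7b2, Cox8c and a second identifier of Atp5o, each with 0 counts. Usmg5, an ATP synthase component listed under another name, had 116 counts and is not a member.

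Mice were females of an F1 cross of C57Bl and 129, either REDD1 knockout (KO; REDD1 is the product of Ddit4) or wild type (WT). The FA+TPA groups received the glucocorticoid fluocinolone acetonide (FA, 2 ug) on shaved back skin 1 h before the tumour promoter and irritant TPA (4 ug), the TPA groups received 4 ug TPA, and the vehicle groups received acetone alone, the solvent of both agents (200 ul). Skin was taken 24 h after TPA and the epidermis was scraped off for RNA sequencing. There was 1 KO and 1 WT library for FA+TPA, 1 KO and 1 WT library for TPA, and 2 KO and 2 WT libraries for vehicle. The labels do not say that the libraries came from separate animals, so the p-values below reflect how far these particular samples vary, and that spread may be technical.

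Oxidative phosphorylation runs in the inner mitochondrial membrane, where complexes I and II take electrons from NADH and succinate, complex III passes them to cytochrome c, and complex IV passes them to oxygen. Complexes I, III and IV pump protons, and complex V, the ATP synthase, uses the proton gradient to make ATP. Most subunits are encoded in the nucleus and imported, while the core proton-pumping subunits of complexes I, III and IV and a few of complex V are encoded by mitochondrial DNA. Many of the nuclear genes are known to be driven by the transcription factors NRF1, GABP (also called NRF2), YY1 and the oestrogen-related receptors (ERR), with the coactivators of the PGC-1 family. Epidermal keratinocytes use glycolysis heavily, and mitochondrial activity is known to take part in their differentiation.

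Promoters are shown because most of these genes were higher with TPA. RefSeq promoter sequences of the mouse assembly GRCm38.p6 (250 bases before to 50 bases after the start) were matched for 79 of the 95 members. The letters GCGCATGCG (NRF1), CCGGAAG (GABP), AAGATGGC (YY1) and TCAAGGTCA (ERR) were searched on both strands. The 6 promoters below show each motif and a promoter with none of them: Uqcrc1 (chr9:108936398-108936697, plus strand) with the NRF1 letters, Cox6a1 (chr5:115348909-115349208, minus strand) with NRF1 and GABP letters, Sdhd (chr9:50603800-50604099, minus strand) with GABP and ERR letters, Atp5g3 (chr2:73911277-73911576, minus strand) with ERR letters, Ndufs7 (chr10:80249199-80249498, plus strand) with YY1 letters, and Cox7a2l (chr17:83514284-83514583, minus strand), whose mRNA was lower with TPA, with none of the 4. Capitals mark the matches, which are the reverse complement of the letters above in Sdhd and Atp5g3 and for GABP in Cox6a1, and the NRF1 letters match both strands with a shift of 1 base in Uqcrc1 and Cox6a1. Matches of different motifs do not overlap in these 6.
Uqcrc1: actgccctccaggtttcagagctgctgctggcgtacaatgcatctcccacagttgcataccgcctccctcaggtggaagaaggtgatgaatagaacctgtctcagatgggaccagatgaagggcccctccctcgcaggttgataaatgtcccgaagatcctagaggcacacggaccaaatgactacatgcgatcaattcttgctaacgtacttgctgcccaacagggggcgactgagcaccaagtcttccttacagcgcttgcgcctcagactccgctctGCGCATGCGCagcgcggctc
Cox6a1: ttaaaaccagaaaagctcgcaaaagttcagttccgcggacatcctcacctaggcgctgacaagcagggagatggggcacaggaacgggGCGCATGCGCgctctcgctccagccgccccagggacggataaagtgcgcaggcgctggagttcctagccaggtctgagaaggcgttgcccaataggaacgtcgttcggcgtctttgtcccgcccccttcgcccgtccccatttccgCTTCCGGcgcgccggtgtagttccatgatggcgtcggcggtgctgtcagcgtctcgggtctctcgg
Sdhd: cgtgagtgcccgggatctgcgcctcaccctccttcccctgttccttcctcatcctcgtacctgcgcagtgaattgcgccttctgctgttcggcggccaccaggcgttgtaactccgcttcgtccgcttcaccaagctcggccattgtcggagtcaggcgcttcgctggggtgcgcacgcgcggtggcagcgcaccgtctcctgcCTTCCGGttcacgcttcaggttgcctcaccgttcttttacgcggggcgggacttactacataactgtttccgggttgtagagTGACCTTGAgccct
Atp5g3: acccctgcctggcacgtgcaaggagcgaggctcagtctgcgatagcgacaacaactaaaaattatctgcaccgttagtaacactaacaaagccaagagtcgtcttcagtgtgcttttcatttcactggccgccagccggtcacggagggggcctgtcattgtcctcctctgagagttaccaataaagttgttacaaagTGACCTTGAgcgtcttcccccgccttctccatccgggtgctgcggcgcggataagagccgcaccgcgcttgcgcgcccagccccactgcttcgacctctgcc
Ndufs7: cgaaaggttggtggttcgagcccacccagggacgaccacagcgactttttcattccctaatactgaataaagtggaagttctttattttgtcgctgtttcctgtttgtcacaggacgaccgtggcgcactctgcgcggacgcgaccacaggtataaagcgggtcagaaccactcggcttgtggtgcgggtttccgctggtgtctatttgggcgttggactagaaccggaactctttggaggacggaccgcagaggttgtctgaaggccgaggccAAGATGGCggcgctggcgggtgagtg
Cox7a2l: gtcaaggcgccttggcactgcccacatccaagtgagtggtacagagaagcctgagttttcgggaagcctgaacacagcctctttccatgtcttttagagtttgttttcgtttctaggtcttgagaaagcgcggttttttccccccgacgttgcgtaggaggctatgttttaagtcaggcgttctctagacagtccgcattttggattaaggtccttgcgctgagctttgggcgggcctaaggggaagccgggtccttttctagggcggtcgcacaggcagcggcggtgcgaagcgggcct

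A gene was counted if any of its promoters of 300 bases held the letters, and 27025 genes had 32851 promoters. The GABP letters stood in 21 of the 79 members (26.6%), against 9.93% of the 27025 genes. The YY1 letters stood in 11 (13.9%, against 3.19% of all genes), the NRF1 letters in 10 (12.7%, against 1.95%) and the ERR letters in 2 (2.53%, against 0.466%). The complexes differed in which letters they held. Of complex II, 5 of 7 genes had the GABP letters. The YY1 letters were found in 8 of 40 complex I and 3 of 15 complex V genes and in none of complexes II, III and IV. Of 46 members called higher with TPA (below), 16 held the GABP letters, 9 the YY1 letters, 6 the NRF1 letters and 2 the ERR letters. Among the other tested members these were 5, 2, 4 and 0 of 33, so the NRF1 share was similar in both sets. These matches are a description of letters in a window and no test was run on them.

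Levels are given as CPM, the count of a gene relative to its library's total after TMM scaling. Totals ran over 16874233 to 22560098 counts per library, and 3 counts correspond to 0.135 to 0.191 CPM. Ddit4, the gene for REDD1, had 7.25, 4.44, 18.8 and 18.6 CPM in the KO FA+TPA, TPA and vehicle libraries, against 90.3, 64.2, 128 and 117 CPM in the WT libraries in the same order, so every KO library lay below every WT library. All 10 keratinocyte markers were detected in every group, with sums of 31527 to 35025 CPM in FA+TPA, 20694 to 25260 CPM in TPA and 21832 to 25845 CPM in vehicle libraries. The noncoding RNA Gm26917 took 18.0% and 16.8% of counts in the KO and WT FA+TPA libraries, 19.0% and 24.2% in the KO and WT TPA libraries and 8.34% to 13.8% in vehicle libraries, with the highest share in the WT TPA library. All 13 mitochondrially encoded subunit genes were listed at 0 in all 8 libraries, so only the nuclear share of each complex is described.

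TPA against vehicle asked how the epidermis responded to the irritant, fitted over both genotypes (2 TPA and 4 vehicle libraries). Most nuclear subunit genes of all 5 complexes were higher with TPA. By edgeR's quasi-likelihood test at an adjusted p of 0.05, 60 of the 94 tested members were higher and 2 were lower, where 23.2% of the 19251 genes tested were called higher and 22.8% lower. The median log2 fold change of the members was 0.42, against -0.03 over all genes. Of the 81 tested subunits 57 were higher and 1 was lower, with called increases of 0.30 to 1.23 on the log2 scale, and 23 were not called, 10 of them with estimates below 0. Of the 12 assembly factors 3 were higher and none lower, with a median of 0.10. Their share called higher was near that of all genes, so it is not a result about the assembly factors. In bulk tissue, fewer cells of a type and less RNA per cell cannot be told apart.

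**Figure D1:**
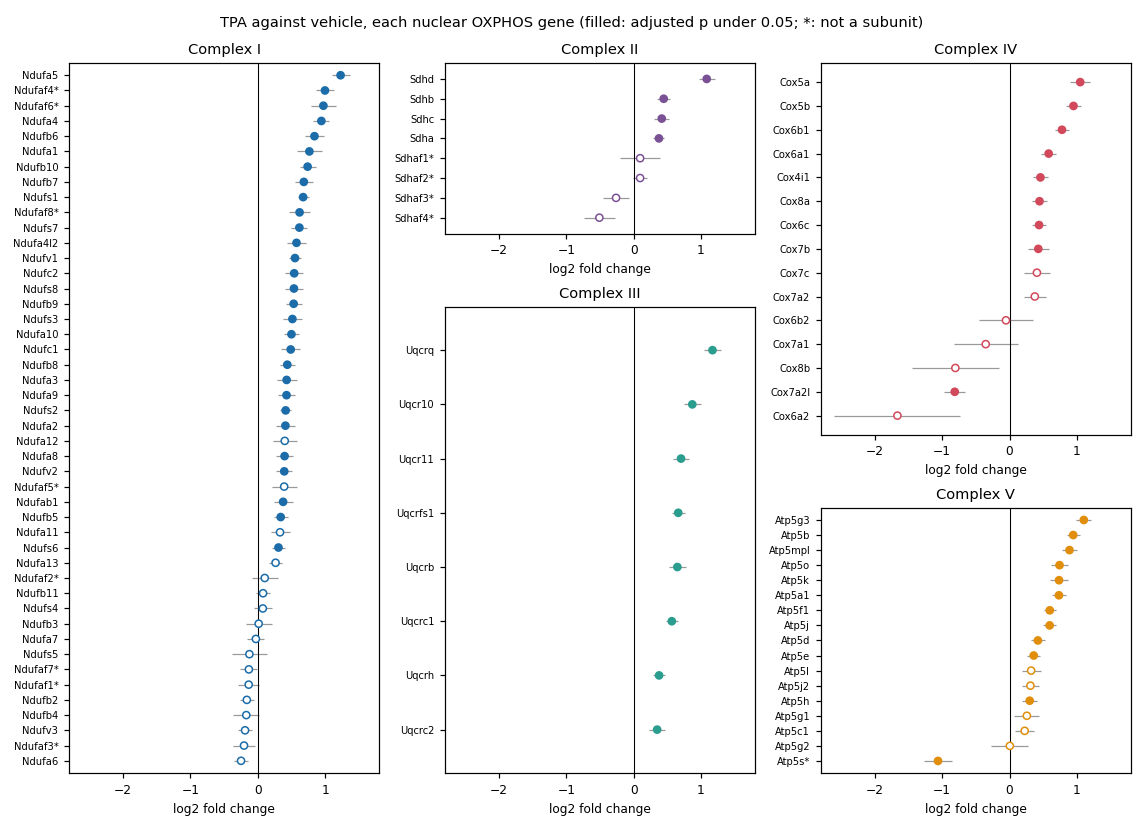
Log2 fold change of every tested member with TPA against vehicle, grouped by complex, with bars giving the standard error of the edgeR fit, filled points an adjusted p under 0.05 and stars genes that are not subunits. Most points of each complex lie above 0, and Cox7a2l and Atp5s are the called members below it.

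Complex I, the NADH dehydrogenase, had 26 of 38 subunits higher and none lower, with a median log2 fold change of 0.42. The 38 include Ndufa4 and Ndufa4l2, both called higher, which are placed here by symbol. Ndufa5 (ENSMUSG00000023089, chr6:24518666-24528013, minus strand), an accessory subunit of the arm that reaches ubiquinone, had 16.6 CPM in the KO and 17.3 CPM in the WT TPA library, against 7.55 and 7.72 CPM in the KO vehicle and 5.93 and 7.66 CPM in the WT vehicle libraries. Both TPA libraries lay above all 4 vehicle libraries, a log2 fold change of 1.23 ± 0.13 (adjusted p = 3.63e-05), where ± gives the standard error of the fit here and throughout. Ndufs1, the largest iron-sulfur subunit of the NADH-oxidising arm, had 93.5 CPM in the KO and 92.9 CPM in the WT TPA library, against 61.6 and 61.8 CPM in the KO vehicle and 52.8 and 57.9 CPM in the WT vehicle libraries. Its groups did not overlap either, with a log2 fold change of 0.67 ± 0.08 (adjusted p = 6.70e-05). Ndufa4, named after complex I but known as a subunit of complex IV, had 121 CPM in the KO and 164 CPM in the WT TPA library, against 64.1 and 68.0 CPM in the KO vehicle and 68.4 and 93.9 CPM in the WT vehicle libraries. The TPA libraries were again above every vehicle library, of which WT replicate 2 was the highest, and the log2 fold change was 0.94 ± 0.12 (adjusted p = 0.000104).

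Within complex I the parts differed in how many genes passed. All 6 subunits of the ubiquinone-reducing Q module were higher (median 0.53), among them Ndufs7, an iron-sulfur subunit with 0.62 ± 0.12. Of the 10 subunits of the NADH-oxidising N module 5 were higher (median 0.35), including Ndufv1, which carries the NADH site, with 0.55 ± 0.09 (adjusted p = 0.000493). Of the 20 subunits of the membrane arm, the P module, 13 were higher (median 0.41), and Ndufb6 and Ndufb10 had the log2 fold changes 0.84 and 0.74. Ndufa6, an accessory subunit of the N module, had 25.8 CPM in the KO and 27.3 CPM in the WT TPA library, against 32.8 and 32.4 CPM in the KO vehicle and 27.2 and 33.7 CPM in the WT vehicle libraries. The KO TPA value lay below the vehicle range and the WT TPA value at its low end, and the estimate of -0.25 ± 0.11 (adjusted p = 0.0867) was not called. Among the assembly factors Ndufaf4, Ndufaf6 and Ndufaf8 were higher, by 1.00, 0.97 and 0.62, and the other 5 Ndufaf genes were not called.

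Complex II, the succinate dehydrogenase that also serves the citric acid cycle, had all 4 subunits higher with a median of 0.43. Sdhd (ENSMUSG00000000171, chr9:50596357-50603812, minus strand), a membrane anchor subunit whose promoter is printed above, had 39.3 CPM in the KO and 40.4 CPM in the WT TPA library, against 21.1 and 18.8 CPM in the KO vehicle and 15.1 and 20.1 CPM in the WT vehicle libraries. TPA and vehicle values did not overlap, at a log2 fold change of 1.08 ± 0.12 (adjusted p = 4.40e-05). Sdha, the flavoprotein, had 115 CPM in the KO and 108 CPM in the WT TPA library, against 90.5 and 89.1 CPM in the KO vehicle and 76.9 and 87.4 CPM in the WT vehicle libraries, and Sdhb, the iron-sulfur subunit, had 31.9 CPM in the KO and 31.6 CPM in the WT TPA library, against 24.0 and 23.7 CPM in the KO vehicle and 21.4 and 24.2 CPM in the WT vehicle libraries. Both genes were higher in each TPA library than in any vehicle library, by 0.38 ± 0.08 (adjusted p = 0.00333) and by 0.45 ± 0.10 (adjusted p = 0.00335). Sdhc, the other anchor, was higher by 0.42 ± 0.11 (adjusted p = 0.00978). None of the 4 Sdhaf assembly factors was called, with log2 fold changes of 0.10, 0.10, -0.26 and -0.51 for Sdhaf1 to Sdhaf4.

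Complex III, the cytochrome bc1 complex, had all 8 subunits higher, and its median of 0.66 was the highest of the 5 complexes. Uqcrq (ENSMUSG00000044894, chr11:53427922-53430831, minus strand), a small membrane subunit, had 70.3 CPM in the KO and 77.1 CPM in the WT TPA library, against 37.0 and 38.0 CPM in the KO vehicle and 25.6 and 31.3 CPM in the WT vehicle libraries. The TPA libraries were both well above the vehicle libraries, in which the KO values were higher than the WT values, and the log2 fold change was 1.17 ± 0.13 (adjusted p = 3.16e-05). Uqcr10, another small membrane subunit, had 36.9 CPM in the KO and 38.6 CPM in the WT TPA library, against 23.0 and 21.0 CPM in the KO vehicle and 16.3 and 22.4 CPM in the WT vehicle libraries. Uqcrfs1, the Rieske iron-sulfur protein that moves electrons to cytochrome c1, had 62.8 CPM in the KO and 70.2 CPM in the WT TPA library, against 40.8 and 45.4 CPM in the KO vehicle and 40.5 and 41.6 CPM in the WT vehicle libraries. Neither gene's groups overlapped, and the log2 fold changes were 0.87 ± 0.13 (adjusted p = 0.000281) for Uqcr10 and 0.66 ± 0.10 (adjusted p = 0.000324) for Uqcrfs1. The core subunit genes Uqcrc1 and Uqcrc2 had smaller changes of 0.57 and 0.35.

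Complex IV, cytochrome c oxidase, had 8 of 15 tested subunits higher and 1 lower, with a median of 0.43. Cox5a (ENSMUSG00000000088, chr9:57521274-57532426, plus strand), a matrix-facing subunit, had 15.2 CPM in the KO and 17.0 CPM in the WT TPA library, against 7.64 and 8.63 CPM in the KO vehicle and 8.59 and 6.16 CPM in the WT vehicle libraries. Cox5b, a zinc-binding matrix subunit, had 32.9 CPM in the KO and 34.8 CPM in the WT TPA library, against 17.7 and 19.6 CPM in the KO vehicle and 14.5 and 18.3 CPM in the WT vehicle libraries. For both, TPA values lay above all vehicle values, with log2 fold changes of 1.05 ± 0.15 (adjusted p = 0.000238) for Cox5a and 0.95 ± 0.12 (adjusted p = 8.71e-05) for Cox5b. Cox6b1, on the cytochrome c side, had 87.2 CPM in the KO and 102 CPM in the WT TPA library, against 57.2 and 59.5 CPM in the KO vehicle and 47.1 and 57.0 CPM in the WT vehicle libraries, also without overlap, at 0.78 ± 0.11 (adjusted p = 0.000177). Cox4i1, the main form of the largest nuclear subunit, was higher by 0.46 ± 0.11 (adjusted p = 0.00584).

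Cox7a2l (ENSMUSG00000024248, chr17:83501918-83517330, minus strand), a relative of Cox7a2 known as a factor that joins complexes III and IV into supercomplexes, was the 1 subunit gene called lower. It had 18.9 CPM in the KO and 25.5 CPM in the WT TPA library, against 43.4 and 33.2 CPM in the KO vehicle and 35.6 and 42.9 CPM in the WT vehicle libraries. Both TPA libraries were below every vehicle library, at a log2 fold change of -0.81 ± 0.16 (adjusted p = 0.00156). Its relative Cox7a2 had 32.6 CPM in the KO and 39.0 CPM in the WT TPA library, against 28.5 and 28.1 CPM in the KO vehicle and 20.6 and 33.0 CPM in the WT vehicle libraries, and the estimate of 0.37 ± 0.16 (adjusted p = 0.0813) was not called.

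Complex V, the ATP synthase, had 11 of 16 subunits higher and none lower, with a median of 0.51. Atp5b (ENSMUSG00000025393, chr10:128083273-128090391, plus strand), the catalytic beta subunit, had 678 CPM in the KO and 756 CPM in the WT TPA library, against 384 and 406 CPM in the KO vehicle and 331 and 372 CPM in the WT vehicle libraries. Atp5g3, which encodes the c subunit of the rotor ring, had 120.1 CPM in the KO and 125 CPM in the WT TPA library, against 59.7 and 71.1 CPM in the KO vehicle and 47.8 and 52.0 CPM in the WT vehicle libraries. TPA and vehicle libraries were separate for both, with log2 fold changes of 0.95 ± 0.10 (adjusted p = 2.26e-05) for Atp5b and 1.10 ± 0.11 (adjusted p = 2.18e-05) for Atp5g3. Atp5mpl, a small membrane subunit, was higher by 0.89 ± 0.12 (adjusted p = 0.000117). By part of the enzyme, 4 of 5 F1 head genes were higher (median 0.42), 6 of 8 stalk and membrane genes (median 0.60) and 1 of the 3 c-ring genes.

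Atp5s (ENSMUSG00000054894, chr12:69724950-69744660, plus strand), known as coupling factor B and not a structural subunit, was lower. It had 1.93 CPM in the KO and 3.57 CPM in the WT TPA library, against 5.58 and 5.18 CPM in the KO vehicle and 5.60 and 5.95 CPM in the WT vehicle libraries. The TPA libraries lay below all vehicle libraries, with KO lower than WT, and the log2 fold change was -1.06 ± 0.21 (adjusted p = 0.00212). The call was lost without the KO TPA library, at a log2 fold change of -0.66 and an adjusted p of 0.0651.

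**Figure D2:**
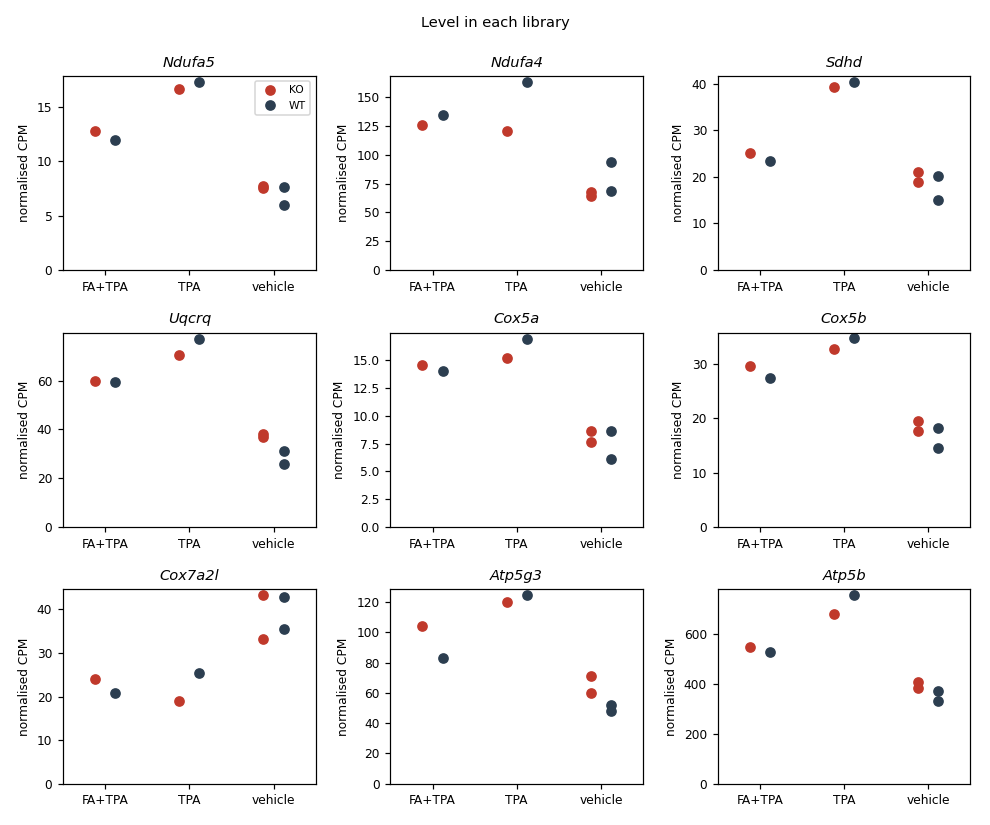
Normalised CPM in each library for 9 members, with FA+TPA, TPA and vehicle from left to right, KO in red and WT in dark. TPA libraries are the highest of each panel apart from Cox7a2l, where the vehicle libraries are highest, and Ndufa4, where the KO TPA library lies below both FA+TPA libraries.

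Counted by library, 65 of the 94 members had both TPA libraries above all 4 vehicle libraries (28.0% of all genes) and 4 had both below (29.0% of all genes): Ndufb2, Sdhaf4, Cox7a2l and Atp5s. Among genes with a mean of 10 CPM or more, 57 of 72 members were called higher and 1 lower, where 31.8% of such genes were called higher and 25.8% lower. Members with no exon overlapping another gene had 37 of 59 higher and 2 lower (median 0.43), and members overlapping a gene on the opposite strand had 21 of 32 higher (median 0.41). Neutrophil markers moved with the same contrast: all 5 of the tested markers, of 8 listed, were higher, with sums of 400.4 CPM in the KO and 931 CPM in the WT TPA library against 4.18 to 15.1 CPM in vehicle, and no listed marker was at 0 in TPA and 1 was at 0 in vehicle. Macrophage and monocyte markers had 6 of 9 higher and 1 lower, with sums of 126 to 320.2 CPM in TPA and 112 to 128 CPM in vehicle libraries, and Langerhans cell markers 2 of 8 higher and 6 lower, with 699 to 744 CPM in TPA and 947 to 1074 CPM in vehicle. Their part in the result was not tested. With scaling by library size alone, which moved the median of all genes to -0.25, 31 members were higher and 6 lower, while without the WT TPA library 29 were higher and 2 lower.

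**Figure D3:**
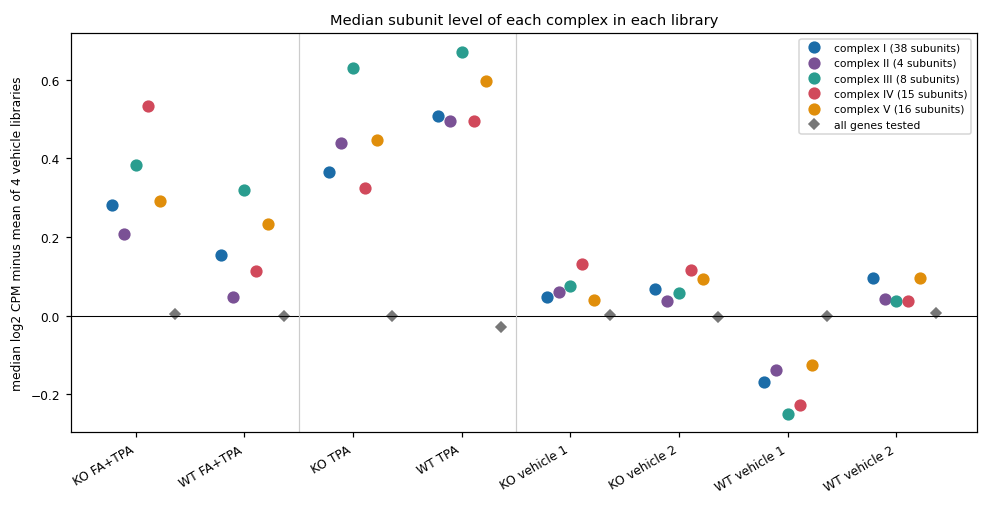
Median log2 CPM of each complex's subunits in each library, relative to the mean of the 4 vehicle libraries, with diamonds for the median of all genes. TPA libraries stand highest for complexes I, II, III and V, FA+TPA libraries mostly lie between TPA and vehicle, and WT vehicle replicate 1 is the lowest library in every complex.

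By library, the median subunit stood 0.31 (KO) and 0.18 (WT) above the vehicle mean on the log2 scale with FA+TPA, and 0.38 (KO) and 0.53 (WT) with TPA. The vehicle libraries themselves stood at 0.06 and 0.08 in KO and at -0.17 and 0.05 in WT. All members together summed to 3952 CPM in the KO and 3654 CPM in the WT FA+TPA library, to 4333 and 4799.8 CPM in the KO and WT TPA libraries, and to 3085 and 3183 CPM in KO and 2780.1 and 3104 CPM in WT vehicle libraries. The TPA sums were the highest, and the WT TPA library was above the KO TPA library. That order depended on the scaling. As a share of unscaled counts, the members took 0.428% in the KO and 0.412% in the WT TPA library. The KO and WT FA+TPA libraries had 0.367% and 0.339%, against 0.291% to 0.344% in vehicle libraries. On that scale the WT FA+TPA library lay inside the vehicle range.

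FA+TPA against TPA asked what the glucocorticoid changed in irritated skin (2 libraries each). Most members had lower estimates with FA+TPA, but few passed the test. By edgeR, 5 members were lower and none higher at an adjusted p of 0.05, where 4.31% of all genes were called lower and 5.71% higher. The share called lower was near that of all genes, so the count is not a result about the members. Of the 5 calls, 0 held under every alternative run. The 5 were Sdhd, Ndufs1, Atp5b, Sdha and Ndufb8, all of which had been called higher with TPA. The median log2 fold change was -0.21, against 0.01 over all genes, and 78 of 94 members were below 0. The comparison shares its TPA libraries with TPA against vehicle, so a high TPA library enters both. The subunit medians were -0.20 for complex I, -0.35 for complex II, -0.31 for complex III, -0.20 for complex IV and -0.24 for complex V.

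Sdhd had 25.2 CPM in the KO and 23.3 CPM in the WT FA+TPA library, against 39.3 CPM in the KO and 40.4 CPM in the WT TPA library. The FA+TPA values were lower than both TPA values, with a log2 fold change of -0.72 ± 0.15 (adjusted p = 0.0106). Sdha, the other complex II subunit that passed, had 92.7 CPM in the KO and 83.1 CPM in the WT FA+TPA library, against 115 CPM in the KO and 108 CPM in the WT TPA library, also without overlap, and a change of -0.34 ± 0.10 (adjusted p = 0.0463). Ndufs1 had 72.5 CPM in the KO and 68.6 CPM in the WT FA+TPA library, against 93.5 CPM in the KO and 92.9 CPM in the WT TPA library, without overlap, and a change of -0.40 ± 0.09 (adjusted p = 0.0220). Ndufb8, an accessory subunit of the membrane arm, had 24.9 CPM in the KO and 22.1 CPM in the WT FA+TPA library, against 30.5 CPM in the KO and 33.7 CPM in the WT TPA library, again without overlap, and a change of -0.45 ± 0.13 (adjusted p = 0.0486). Atp5b, the catalytic ATP synthase subunit, had 547 CPM in the KO and 526 CPM in the WT FA+TPA library, against 678 CPM in the KO and 756 CPM in the WT TPA library. Its FA+TPA values too were below both TPA values, at -0.42 ± 0.11 (adjusted p = 0.0418). Cox7a2l had 24.0 CPM in the KO and 20.9 CPM in the WT FA+TPA library, around its TPA values, with an estimate of 0.03 ± 0.18 (adjusted p = 0.952).

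Both FA+TPA libraries were below both TPA libraries in 60 of 94 members (25.4% of all genes) and above both in 7 (27.4% of all genes): Ndufaf7, Ndufa4l2, Ndufa6, Ndufb2, Ndufb4, Cox6a2 and Cox8b. In 35 members they lay between, below both TPA and above all 4 vehicle libraries (9.85% of all genes). Neutrophil markers were also lower, 3 of the 5 tested, with sums of 199 CPM in the KO and 109 CPM in the WT FA+TPA library. Of the 8 listed, 1 was at 0 in FA+TPA. Of the 10 keratinocyte markers 4 were higher and 1 lower. None of the 15 tested skeletal muscle markers was called, with a median of 1.98. Their sums were 502 CPM in the KO and 679.7 CPM in the WT FA+TPA library, against 203 and 142 CPM in the KO and WT TPA libraries. Their part in the result was not tested. No member was called without the WT FA+TPA or without the WT TPA library, 1 was called without the KO FA+TPA library and 2 each without KO vehicle replicate 1 or 2. Without WT vehicle replicate 1 or 2 the counts were 9 and 8, and with no filter on low counts 10 members were lower and 2 higher.

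FA+TPA against vehicle gave the difference that was left with both agents (2 against 4 libraries, sharing the vehicle libraries of the TPA comparison). By edgeR, 26 of 94 members were higher and 2 lower, where 17.4% of all genes were called higher and 14.2% lower. All 26 were also called higher with TPA, and the 2 lower were Cox7a2l and Atp5s. By complex, 8 of 38 subunits of complex I were higher (median 0.21), 1 of 4 of complex II (0.13), 4 of 8 of complex III (0.32), 4 of 15 of complex IV with 1 lower (0.28), and 8 of 16 of complex V (0.28). For complexes I and II the share called higher was near that of all genes, so their counts are not a result about them. The medians of the complexes depended on the scaling: with library size alone, added after seeing the data, they were -0.016 for complex I and -0.094 for complex II, opposite in sign, and 0.10, 0.056 and 0.065 for complexes III to V, where that scaling put the median of all genes at -0.23. Both FA+TPA libraries were above all 4 vehicle libraries in 43 members (24.7% of all genes). The count of called members was 17 with scaling by library size alone (9 higher, 8 lower), 9 without the WT FA+TPA library, 11 without the KO FA+TPA library and 16 without KO vehicle replicate 1.

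Markers of other cells moved in the same comparison. All 5 tested neutrophil markers, of 8 listed, were higher, with sums of 199 CPM in the KO and 109 CPM in the WT FA+TPA library, against 4.18 to 15.1 CPM in vehicle libraries, and 1 of the 8 was at 0 in FA+TPA and 1 in vehicle. Of 9 tested macrophage and monocyte markers 5 were higher and none lower, with sums of 167 CPM in the KO and 137 CPM in the WT FA+TPA library, against 112 to 128 CPM in vehicle. Of 8 Langerhans cell markers 2 were higher and 6 lower, with sums of 646 CPM in KO and 499 CPM in WT, against 947 to 1074 CPM in vehicle. Of 8 T cell markers 1 was higher and 5 lower, with sums of 58.2 CPM in KO and 56.0 CPM in WT, against 52.2 to 84.5 CPM in vehicle. Of the 10 keratinocyte markers, whose sums are given above, 6 were higher and 2 lower. None of the 15 tested skeletal muscle markers was called (median 1.20). They summed to 502 CPM in KO and 679.7 CPM in WT, against 48.3 to 773 CPM in vehicle. Their part in the result was not tested.

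Among the genes placed in complex I by symbol, the smallest p-values were those of Ndufa4l2 and Ndufa4. Ndufa4l2 (ENSMUSG00000040280, chr10:127514967-127517154, plus strand), a relative of Ndufa4 known to be induced by hypoxia and to lower complex I activity, had 134 CPM in the KO and 155 CPM in the WT FA+TPA library, 81.6 and 131 CPM in the KO and WT TPA libraries, and 67.4 and 63.8 CPM in the KO and 88.5 and 60.7 CPM in the WT vehicle libraries. Both FA+TPA libraries were above all others, while the KO TPA library lay inside the vehicle range. Its log2 fold change was 1.04 ± 0.15 (adjusted p = 0.000408) with FA+TPA against vehicle, 0.57 ± 0.15 (adjusted p = 0.00885) with TPA against vehicle, and 0.47 ± 0.17 (adjusted p = 0.128) between FA+TPA and TPA. Ndufa4 itself had 126 CPM in the KO and 134 CPM in the WT FA+TPA library, a change of 0.83 ± 0.12 (adjusted p = 0.000501) against vehicle.

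In complex III, Uqcrq had 59.8 CPM in the KO and 59.4 CPM in the WT FA+TPA library, a change of 0.86 ± 0.13 (adjusted p = 0.000556), and Uqcr11, a small subunit, changed by 0.57 ± 0.13 (adjusted p = 0.00601). In complex IV, Cox5a had 14.6 CPM in the KO and 14.1 CPM in the WT FA+TPA library, a change of 0.88 ± 0.15 (adjusted p = 0.00150), and Cox5b a change of 0.71 ± 0.12 (adjusted p = 0.00127). In complex V, Atp5g3 had 104 CPM in the KO and 82.8 CPM in the WT FA+TPA library, a change of 0.70 ± 0.11 (adjusted p = 0.000953), and Atp5mpl a change of 0.65 ± 0.12 (adjusted p = 0.00188). All FA+TPA values given for these genes lay above the vehicle values given earlier. Sdhd, with 25.2 CPM in the KO and 23.3 CPM in the WT FA+TPA library, was the only complex II subunit called, at 0.37 ± 0.13 (adjusted p = 0.0488). That call held in only 3 of 16 alternative runs. Cox7a2l was lower, at -0.78 ± 0.16 (adjusted p = 0.00340), and Atp5s, with 3.44 CPM in the KO and 3.88 CPM in the WT FA+TPA library, was lower too, at -0.61 ± 0.21 (adjusted p = 0.0458).

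Levels between genes were compared as CPM per kb of the principal transcript, averaged over the 4 vehicle libraries. The median subunit had 23.8 CPM per kb in complex I, 17.8 in complex II, 35.2 in complex III, 21.1 in complex IV and 30.3 in complex V. Ndufa4 is again placed under complex I by symbol only. The highest subunit level in each complex was that of Ndufa4 (139 CPM per kb), Sdha (29.6), Uqcrh (79.2; the hinge protein), Cox4i1 (152) and Atp5b (195). The lowest was that of Ndufs5 (2.75), Sdhc (10.7), Uqcrb (18.4), Cox4i2 (0.278) and Atp5g1 (1.31). Over the 81 tested subunits, the log2 vehicle level per length and the log2 fold change with TPA had a Pearson r of 0.53 and a Spearman rho of 0.33, a description over genes that share the same libraries.

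Several subunits have isoforms encoded by separate genes, and in each pair of complex IV the common form dominated in all 8 libraries. As a share of the pair on the CPM per kb scale, the lung and hypoxia form Cox4i2 made up 0.0378% to 0.260%, the muscle form Cox6a2 0.0641% to 2.14%, the testis form Cox6b2 0.686% to 1.51%, the muscle and brown fat form Cox7a1 0.721% to 7.18%, and Cox8b, also of muscle and brown fat, 0.497% to 2.70%. The testis forms Cox7b2 and Cox8c had 0 counts. Atp5g3 made up 94.5% to 98.4% of the c-subunit genes. Ndufa4l2 made up 37.6% and 39.5% of its pair with Ndufa4 in the KO and WT FA+TPA libraries, 27.7% and 31.3% in the KO and WT TPA libraries, and 37.4% and 34.8% in KO and 42.4% and 26.9% in WT vehicle libraries. The vehicle shares spanned those of both treatments.

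Of the common isoforms, Cox6a1 was higher with TPA by 0.58 ± 0.11 (adjusted p = 0.00184) and Cox8a by 0.45 ± 0.11 (adjusted p = 0.00891), and Cox7b by 0.43 ± 0.16 (adjusted p = 0.0456). The Cox7b call held in only 6 of 16 alternative runs. Atp5g1 had 4.26 CPM in the KO and 4.07 CPM in the WT TPA library, against 3.47 and 3.18 CPM in the KO vehicle and 3.22 and 4.14 CPM in the WT vehicle libraries, within the vehicle range for KO and WT apart from the KO TPA library just above it. Its estimate was 0.26 ± 0.19 (adjusted p = 0.291), and Atp5g2, the third c-subunit gene, had an estimate of 0.00 ± 0.27 (adjusted p = 0.991). Cox4i2, removed by the filter, had 0.242 CPM in the KO and 0.254 CPM in the WT FA+TPA library, 0.269 and 0.370 CPM in the KO and WT TPA libraries, and 0.281 and 0.0454 CPM in the KO and 0.226 and 0.259 CPM in the WT vehicle libraries, which is near the level that 3 counts give.

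KO against WT asked what the loss of REDD1 changed. Over all treatments (4 libraries each), 1 of the 94 members was called, higher in KO, where 1.98% of all genes were called higher and 1.6% lower. At an unadjusted p under 0.05 there were 9 members (16.0% of all genes). Ndufs5, an accessory subunit of the membrane arm of complex I, had 2.05, 1.89, 1.97 and 2.45 CPM in the KO FA+TPA, TPA and vehicle libraries, against 1.21, 1.11, 1.19 and 0.983 CPM in the WT libraries in the same order of treatment. All 4 KO libraries were above all 4 WT libraries, on 18 to 54 counts per library, with a log2 fold change of 0.90 ± 0.21 (adjusted p = 0.0440). The call was lost on leaving out any of the 8 libraries, with adjusted p-values from 0.0847 to 0.143, and with DESeq2 (adjusted p = 0.168), while the estimate stayed between 0.80 and 0.96. Sdhaf3 was the other member with all KO above all WT libraries (1.99% of all genes), and no member had all KO libraries below (1.71%). The median log2 fold change was 0.06.

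In vehicle skin (2 libraries each), the median member was 0.12 higher in KO on the log2 scale, against -0.02 over all genes. By library, the median member stood at 0.06 and 0.07 in KO and at -0.15 and 0.04 in WT, relative to the vehicle mean. WT replicate 2 was thus close to the KO libraries and WT replicate 1 stood apart. By edgeR 1 member was called, higher in KO, where 1.44% of all genes were called higher and 0.727% lower. At an unadjusted p under 0.05 there were 7 members (11.5% of all genes). Both KO vehicle libraries were above both WT vehicle libraries in 26 members (19.7% of all genes) and below in 7 (20.1%). The member called was Cox6a2, the heart and skeletal muscle form of a complex IV subunit, with 1.27 and 0.590 CPM in KO vehicle, against 0.0565 and 0.0517 CPM in WT vehicle. These are 27 and 13 counts against 1 and 1, and the ratio of the summed counts scaled by library was 17.1 with an exact 95% interval from 4.43 to 146 that covers counting error only. Its adjusted p by edgeR was 0.0339, and the call was lost with limma-voom (adjusted p = 0.0598) and with DESeq2 (adjusted p = 0.289). The count of called members was 9 without WT vehicle replicate 2 and 2 without WT vehicle replicate 1.

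Skeletal muscle markers followed the same libraries: they summed to 502 CPM in the KO and 679.7 CPM in the WT FA+TPA library, to 203 and 142 CPM in the KO and WT TPA libraries, and to 773 and 400.6 CPM in KO and 103 and 48.3 CPM in WT vehicle libraries. Cox6a2 had 0.906 CPM in the KO and 0.954 CPM in the WT FA+TPA library, and 0.224 and 0.0616 CPM in the KO and WT TPA libraries. It was highest where the marker sum was high, in KO vehicle and both FA+TPA libraries. In KO against WT vehicle 10 of 15 tested muscle markers, of 16 listed, were higher with a median of 3.15, none of the 16 was at 0 in vehicle, and 1 was at 0 in the TPA and 1 in the FA+TPA libraries. All 6 sebocyte markers were higher in KO vehicle too, with sums of 4880.1 and 6064 CPM against 1990.5 and 2902 CPM in WT. Their part in the result was not tested. Of the other muscle-type forms, Cox7a1 had 1.31 and 0.953 CPM in KO against 0.678 and 0.517 CPM in WT vehicle libraries, and Cox8b had 0.610 and 0.227 CPM in KO against 0.283 and 0.362 CPM in WT, neither of them called. In CPM per kb, Cox7a1 had 1.38 in the KO and 0.324 in the WT FA+TPA library. In the KO and WT TPA libraries it had 1.26 and 2.20. Cox8b had 1.85 and 0.884 with FA+TPA and 0.374 and 0.856 with TPA, KO before WT. Cox7a1 thus did not follow the marker sum in WT, where it was lowest with FA+TPA.

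**Figure D4:**
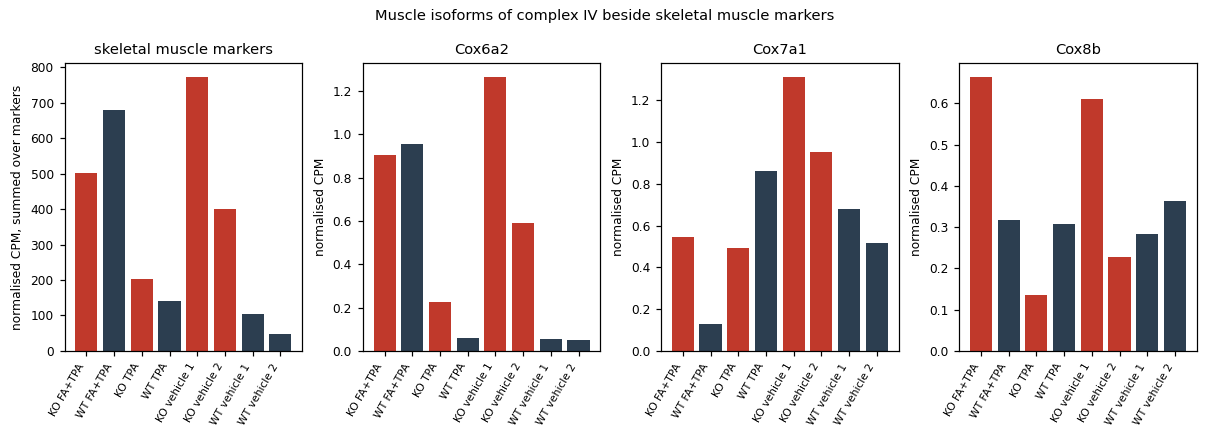
Summed CPM of the 16 skeletal muscle markers and CPM of the muscle-type subunit forms Cox6a2, Cox7a1 and Cox8b in each library, as bars from 0. The marker sum and Cox6a2 are both high in the FA+TPA and KO vehicle libraries and low in the TPA and WT vehicle libraries. Cox7a1 is lowest in the WT FA+TPA library, where the marker sum is high.

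Whether the response to TPA differed between genotypes was tested as an interaction, with 1 library per genotype for each treatment. No member was called (0.00519% of all genes were), and the same count of 0 was found with limma-voom and with DESeq2. At an unadjusted p under 0.05 edgeR gave 1 member, against 5.27% of all genes. As a description, TPA minus vehicle was lower in KO than in WT for 74 of 81 subunits (48.4% of all genes), with median log2 CPM differences of 0.34 in KO and 0.58 in WT. In KO and WT these medians were 0.32 and 0.56 for complex I, 0.39 and 0.53 for complex II, 0.55 and 0.73 for complex III, 0.27 and 0.58 for complex IV, and 0.42 and 0.59 for complex V. These subunit counts rest on the same 6 libraries, of which the WT TPA library had the highest and WT vehicle replicate 1 the lowest subunit median. As a share of unscaled counts, the subunits took 0.419% in the KO and 0.405% in the WT TPA library, the reverse order.

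The member with the smallest interaction p was Uqcrq, with differences of 0.91 in KO and 1.44 in WT and an interaction of -0.53 ± 0.23 (unadjusted p = 0.0440, adjusted p = 0.935 by edgeR). For FA+TPA against TPA the interaction again called no member with edgeR, limma-voom or DESeq2 (0.0% of all genes with edgeR), and 3 members had an unadjusted p under 0.05 (3.18% of all genes). The median differences were -0.09 in KO and -0.36 in WT. The same TPA libraries enter these differences and TPA minus vehicle with opposite sign, so a high WT TPA library enters both. The smallest p was that of Ndufa2, an accessory subunit of the N module, with 17.1 CPM in the KO and 15.2 CPM in the WT FA+TPA library, against 17.6 CPM in the KO and 25.4 CPM in the WT TPA library. FA+TPA and TPA values were close in KO and apart in WT, and the interaction was 0.70 ± 0.29 (unadjusted p = 0.0370, adjusted p = 1.00). Against vehicle, the FA+TPA medians were 0.25 in KO and 0.21 in WT.

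**Figure D5:**
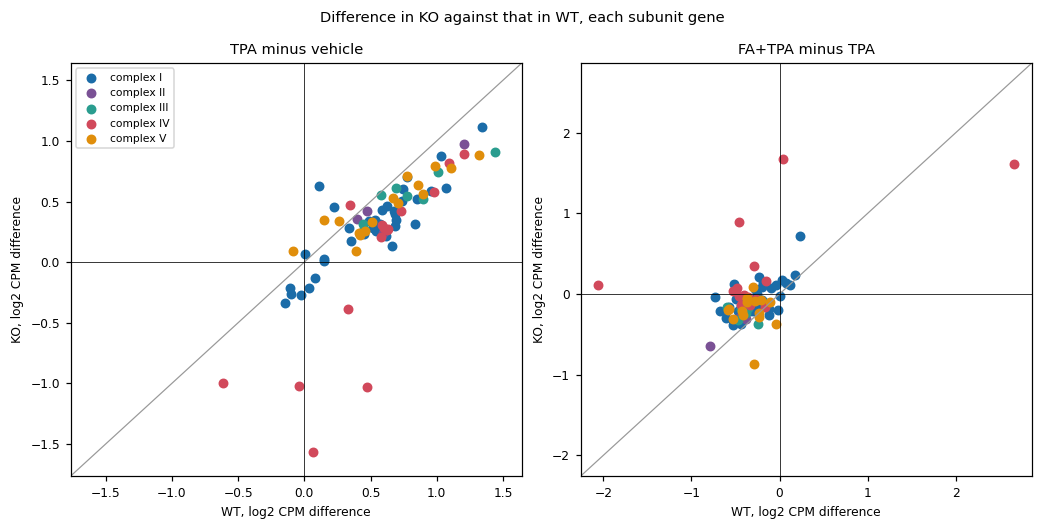
For each tested subunit, the log2 CPM difference in KO (vertical) against that in WT (horizontal), for TPA minus vehicle and for FA+TPA minus TPA, with the line of equal differences. For TPA minus vehicle 74 of 81 points lie below the line (48.4% of all genes), and for FA+TPA minus TPA 12 of 81 (50.7% of all genes). The same TPA libraries enter both panels with opposite sign, so the panels are not separate results.

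Other mitochondrial genes were read from lists outside the subunit rule, where the shares of all genes called with TPA against vehicle, 23.2% higher and 22.8% lower, are the background for each count. With TPA against vehicle, 42 of 77 tested mitochondrial ribosomal protein genes were higher and 2 lower (median 0.37), with Mrps27 at 1.11 ± 0.11 (adjusted p = 2.05e-05) and Mrpl12 at 1.14 ± 0.12 (adjusted p = 3.12e-05). Of the 16 genes of pyruvate dehydrogenase and the citric acid cycle 9 were higher and none lower (median 0.28). Mdh2, the mitochondrial malate dehydrogenase, had 119 CPM in the KO and 131 CPM in the WT TPA library, against 67.0 and 69.7 CPM in the KO vehicle and 62.5 and 63.6 CPM in the WT vehicle libraries, without overlap, at 0.93 ± 0.08 (adjusted p = 8.53e-06), and Idh3a, of the isocitrate dehydrogenase of the cycle, was higher by 0.81. Of 35 assembly and copper or heme delivery factors outside the rule 9 were higher and 5 lower (median 0.20), with Uqcc2, of complex III assembly, at 0.88 and Lrpprc, which stabilises mitochondrial mRNA, at 0.60. The share of these factors called higher was near that of all genes, so it is not a result about the list. The 3 lists had 2, 0 and 0 genes called lower and none higher in FA+TPA against TPA, where 4.31% of all genes were called lower and 5.71% higher.

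Carriers and regulators were mixed, read against the same 23.2% higher and 22.8% lower. Of 21 electron, nucleotide and phosphate carrier and uncoupler genes 7 were higher and 2 lower with TPA (median 0.12). Cycs, cytochrome c, was higher by 0.79 ± 0.20 (adjusted p = 0.00877) and Slc25a5, an adenine nucleotide carrier, by 0.83 ± 0.10 (adjusted p = 8.02e-05). The carrier Slc25a4 was not called, at 0.02 ± 0.11, while Coq8a, of coenzyme Q synthesis, was lower, at -1.68 ± 0.15 (adjusted p = 8.38e-06). Of 15 regulators of mitochondrial biogenesis 5 were higher and 2 lower (median 0.11). Pprc1 had 106 CPM in the KO and 101 CPM in the WT TPA library, against 43.7 and 51.6 CPM in the KO vehicle and 57.0 and 46.3 CPM in the WT vehicle libraries, and Ppargc1b had 19.9 CPM in the KO and 20.0 CPM in the WT TPA library, against 8.53 and 10.5 CPM in the KO vehicle and 9.21 and 8.12 CPM in the WT vehicle libraries. Both PGC-1 family coactivators were higher in the TPA libraries without overlap, by 1.06 ± 0.10 (adjusted p = 1.75e-05) for Pprc1 and by 1.14 ± 0.16 (adjusted p = 0.000219) for Ppargc1b. Ppargc1b was lower with FA+TPA against TPA, with 13.2 CPM in the KO and 7.89 CPM in the WT FA+TPA library and a change of -0.94 ± 0.19 (adjusted p = 0.0117).

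Of the factors whose letters were searched in the promoters, Esrra (ERR alpha) was higher by 0.64 ± 0.12 (adjusted p = 0.00151) and Nrf1 by 0.37 ± 0.08 (adjusted p = 0.00326), while Gabpa, a subunit of GABP, was not called, at 0.10 ± 0.09. The gene for YY1, whose letters were searched too, was not among the regulators chosen for naming. Among other regulators Tfam, the mitochondrial DNA packaging factor, was not called, at 0.10 ± 0.10, nor was Ppargc1a, at 0.11 ± 0.38. Of 6 hypoxia regulators of subunit isoforms 5 were higher with TPA and none lower (median 0.93, where 23.2% of all genes were called higher), with Egln3, an oxygen-sensing hydroxylase, at 1.94 ± 0.09 (adjusted p = 1.86e-07) and Lonp1, the mitochondrial protease, at 0.86 ± 0.10 (adjusted p = 4.36e-05). With FA+TPA against TPA 4 of these 6 were lower and 1 higher, where 4.31% of all genes were called lower and 5.71% higher.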

How the data were processed

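RNA sequencing of scraped epidermis gave 8 libraries. The deposited files hold raw read counts per Ensembl gene, which the authors had not normalised. The submitters' processing notes name Trim Galore, STAR, HTSeq and the build mm10. With tool versions, annotation and strand setting not given in the sources used here, reads of overlapping or antisense genes and of near-identical copies may be shared. Symbols came from GENCODE M21 (54165 of 54232 identifiers matched).

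Counts were tested with edgeR 4.0.16 (quasi-likelihood F test, TMM, low counts removed by filterByExpr with treatment as the group and minimum count 10, leaving 19251 genes) in R 4.3.3, with Benjamini-Hochberg adjustment over all genes at 0.05. Treatments and genotype over all treatments were fitted additively on all 8 libraries (4 residual degrees of freedom); genotype in vehicle and interactions used 1 mean per group (2 residual degrees of freedom). Per-genotype differences use log2 CPM with a prior count of 2. The scripts were tested on simulated data. The vehicle pairs differed by more than sampling noise (chi-square per degree of freedom 12.4 in KO, 27.6 in WT).

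Named genes were, per complex, the 3 higher and 2 lower members of smallest p with TPA, the 2 in each direction with FA+TPA, genotype calls, isoform families, level extremes and a few regulators, with other members as examples. Members and lists were chosen with earlier results of these data known. Alternatives were RLE and library-size scaling, no filter, a minimum count of 50, limma-voom 3.58.1, DESeq2 1.42.0, Gm26917 removed, group means and each library left out.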

Additional observations from a re-analysis of the deposited data

Results flagged for a closer look

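In 8 cases the treated KO and WT libraries lay beyond both vehicle libraries of their own genotype in opposite directions, given here as log2 CPM differences from the vehicle mean. How often all genes show this pattern was not counted, so the 8 cases are not a result about the members. With TPA, Sdhaf1, a complex II assembly factor, had 0.551 in KO and -0.493 in WT. Cox6a2, the muscle form named above, had -1.56 in KO and 0.0664 in WT. Its WT TPA and WT vehicle values all lay below the level of 3 counts, so no change is read from WT. Cox6b2, the testis form, had -0.389 in KO and 0.329 in WT, and Cox7a1, the muscle and brown fat form, had -1.03 in KO and 0.471 in WT. The interaction of genotype with TPA called none of the 4, with unadjusted edgeR p-values of 0.0734 for Sdhaf1, 0.340 for Cox6a2, 0.312 for Cox6b2 and 0.0561 for Cox7a1. With FA+TPA against vehicle, Ndufaf1, a complex I assembly factor, had -0.206 in KO and 0.149 in WT, and Ndufa2 had 0.0936 in KO and -0.0773 in WT. Sdhaf2, a complex II assembly factor, had 0.0487 in KO and -0.119 in WT, and Cox6b2 had 0.499 in KO and -0.131 in WT. For these 4 the difference between genotypes was not tested. Each treated value is 1 library, and Cox6a2, Cox6b2 and Cox7a1 rest on few counts per library.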

How the results depend on the processing

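Under the alternatives run, no called member changed sign, nor did a complex median with TPA against vehicle or with FA+TPA against TPA. The same alternatives were applied to the FA+TPA against vehicle medians after seeing the data: with library size alone these were -0.016, -0.094, 0.10, 0.056 and 0.065 for complexes I to V, so complexes I and II changed sign. Of the members called, 28 of 62 with TPA, 0 of 5 with FA+TPA against TPA, 8 of 28 with FA+TPA against vehicle and neither genotype call held under every alternative, and the 8 were Atp5b, Atp5g3, Cox5a, Cox5b, Ndufa4, Ndufa4l2, Ndufa5 and Uqcrq. With library size alone as the scale, 37 members were called with TPA, 2 with FA+TPA against TPA and 17 with FA+TPA against vehicle, and the TPA medians were 0.19, 0.20, 0.43, 0.19 and 0.28 for complexes I to V. With no filter on low counts 12 were called with FA+TPA against TPA and 3 for KO against WT. With 1 mean per group these counts were 2 and 0, and a minimum count of 50 or DESeq2 gave 0 for KO against WT. For KO against WT in vehicle, a minimum of 50, limma-voom and DESeq2 gave 0. The vehicle libraries alone gave 0 members with no replicate block and 0 with a replicate block, which moved the calls over all genes to 489 higher and 162 lower, against 213 and 67 without it; the replicate numbers did not pair the libraries (correlation -0.0588 of the 2 vehicle differences over genes).

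Leaving out each library gave 31 to 63 members with TPA, 0 to 9 with FA+TPA against TPA, 9 to 28 with FA+TPA against vehicle, 0 to 1 for KO against WT, 1 to 9 in vehicle (9 without WT vehicle replicate 2) and 0 to 1 for the TPA interaction, and 0 to 0 for the FA interaction. The TPA medians ran over 0.32 to 0.59, 0.38 to 0.58, 0.55 to 0.77, 0.25 to 0.63 and 0.45 to 0.64 for complexes I to V. The FA+TPA against TPA medians ran over -0.36 to -0.10, -0.46 to -0.32, -0.46 to -0.23, -0.39 to -0.030 and -0.37 to -0.19. Those of FA+TPA against vehicle ran over 0.14 to 0.24, 0.043 to 0.20, 0.31 to 0.40, 0.18 to 0.37 and 0.19 to 0.30. Where a count moved, the cause was not tested beyond the fewer libraries or genes. With 1 library per genotype and treatment, a leave-out fit assumes that the lone library varies like the others, and members under 1 CPM rest on few counts. An interaction could not be refitted without a treated library that it uses. For the FA interaction only vehicle libraries were therefore left out, and these do not enter its difference.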
